A study of Mus musculus with 6 samples.

Results

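Intronic circular RNAs (ciRNAs) of the mouse spinal cord were described after traumatic spinal cord injury (TSCI) and after sham surgery. They were taken as all circular RNAs whose type in the deposited circRNA table was ciRNA, which gave 624 of 17440 circRNAs (3.58%). The other 16816 were exonic circRNAs, made by splicing the end of an exon back to an upstream exon. The 624 ciRNAs lay at 577 positions, counting ciRNAs that overlap as 1 position, in 539 host genes. Every animal was a male C57BL/6 mouse, an inbred laboratory strain, aged 8 weeks. In the TSCI group the cord was exposed by removing the vertebral arches at T8 to T10 and injured with a dropped weight of moderate force. In the sham group the arches were removed in the same way and the cord was not struck. Each group had 3 libraries of whole spinal cord total RNA, depleted of ribosomal RNA, and the labels speak of 48 mice in 6 sets of 8. Whether a library pools a set, and the time from surgery to tissue collection, were not given in the sources used here, so the p-values measure the spread between these libraries only.

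An intron leaves the pre-mRNA as a lariat, a loop in which the first base of the intron is joined by a 2′-5′ bond to the branch point, usually an adenosine a short way before the 3′ splice site. Most lariats are opened by the debranching enzyme Dbr1 and then degraded. A ciRNA, as first described, is the loop of a lariat that escaped debranching and lost the tail behind the branch point. Such a loop starts at the 5′ splice site, ends near the branch point and holds no exon sequence. In cell lines ciRNAs were found mostly in the nucleus, and some were reported to act on transcription of their own gene.

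The libraries also differed in lane, depth and content. The deposited circRNA values implied 26602413, 35900479 and 47159020 fragments in TSCI replicates 1 to 3 and 38023848, 39387604 and 39113480 in sham replicates 1 to 3. Counts assigned to circRNAs summed to between 4117695 and 7177607 per library. TSCI replicate 1 and sham replicate 1 came from sequencing lane 8, and intronic isoforms took 9.76% and 10.2% of their bases in the isoform table, against 1.98% to 3.83% in the rest. Sham replicate 2 was the only library of lane 3, and 1 circRNA held 1147160 of its counts. Marker genes of neurons, oligodendrocytes and astrocytes, 12 in all, were above 0 in every library. The summed FPKM (fragments per kilobase, scaled to the depth of the library) of 4 macrophage markers was 191, 453 and 336 in TSCI, against 5.22, 2.67 and 4.79 in sham, with all 4 higher in every TSCI library than in every sham library and Cd68 and Gpnmb each at 0 in 1 sham library. The summed FPKM of 4 skeletal muscle markers was 0.152, 5.15 and 0.781 in TSCI, against 2.26, 49.98 and 17.0 in sham.

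The sequences below show how some of the listed ciRNAs start and end. They were read from GENCODE M21 transcripts (GRCm38) that keep the intron as an exon, since only such transcripts hold intron sequence, and each is given 5′ to 3′. ciRNA317 of Hspa8, the constitutive heat shock protein of the HSP70 family, is the whole of intron 2 at chr9:40802128-40802417 on the plus strand, 290 bases, with its first and last 2 bases in capitals:
ciRNA317: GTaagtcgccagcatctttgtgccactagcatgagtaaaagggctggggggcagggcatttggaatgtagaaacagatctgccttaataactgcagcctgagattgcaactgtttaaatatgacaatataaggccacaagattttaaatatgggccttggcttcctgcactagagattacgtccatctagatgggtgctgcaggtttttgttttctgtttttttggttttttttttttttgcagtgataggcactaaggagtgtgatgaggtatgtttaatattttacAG
ciRNA102 of the long noncoding RNA Gas5 lies at chr1:161036853-161037122 on the plus strand, 270 bases, and holds the box C/D small nucleolar RNA Snord78 (66 bases, 161036984 to 161037049), shown in capitals:
ciRNA102: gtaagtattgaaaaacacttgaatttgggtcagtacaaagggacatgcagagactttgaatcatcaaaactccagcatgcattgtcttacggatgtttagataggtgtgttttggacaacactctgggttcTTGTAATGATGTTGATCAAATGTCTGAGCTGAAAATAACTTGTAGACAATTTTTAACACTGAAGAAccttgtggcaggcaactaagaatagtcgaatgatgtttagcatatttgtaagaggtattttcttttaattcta
ciRNA174 of Osbpl7, an oxysterol-binding protein, lies at chr11:97056348-97056510 on the plus strand, 163 bases, and stops 17 bases before the end of its intron, with the first 2 bases in capitals:
ciRNA174: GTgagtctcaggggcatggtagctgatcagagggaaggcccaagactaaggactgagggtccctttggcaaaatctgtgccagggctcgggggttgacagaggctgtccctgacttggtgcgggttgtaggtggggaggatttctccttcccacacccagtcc

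A pair of ciRNAs of Arrb1, which encodes beta-arrestin 1, shows how near-identical members of the table can be. They share the first base, chr7:99596107 on the plus strand, and differ by 1 base at the end. Their first 30 bases are the same, and their last 30 bases are given with the last 2 in capitals:
ciRNA18 and ciRNA254, first 30: GTaagtccagctgtcccagaacccctgctc
ciRNA18, last 30: cgcttcttctgcctcctctggtccactcAG
ciRNA254, last 30: ccgcttcttctgcctcctctggtccactCA
Both were listed with the same counts in every library. ciRNA26 of Cars, the cysteinyl-tRNA synthetase, at chr7:143570181-143570541 on the minus strand, stops 31 bases before the end of its intron, and its last 30 bases are shown because its last base is not an adenosine:
ciRNA26, last 30: acaggtgagatctcaccccaggccccaaGC
The ciRNA with the highest count, ciRNA229 of Gm20417, at chr19:5797744-5797988 on the plus strand, has the same kind of start, read here from the opposite strand of a Malat1 transcript:
ciRNA229, first 30: GTaagccccatccccccctccctccacatt

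The ciRNAs started at the 5′ end of their listed introns. All 624 began at the first base of the intron the table lists, and 622 began at a 5′ splice site annotated in GENCODE M21. The sources used here do not say whether the ciRNA type was assigned by such a start. These counts, and the first bases given next, therefore do not test a lariat origin. Of the 175 whose first 30 bases could be read, 169 (96.6%) began with GT and 66 (37.7%) with GTAAG, on the strand of the ciRNA. Their ends varied more. The last base was the last base of the listed intron, or 1 base past it, in 192 ciRNAs. It lay 1 to 9 bases before the intron end in 127, 10 to 60 bases before it in 118, with a median of 24, and over 60 bases before it in 187. Of those 187, 35 ended at another annotated 3′ splice site of the same 5′ splice site. ciRNAs therefore covered a median of 99.0% of the listed intron, and 396 covered at least 95% of it.

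**Figure D1:**
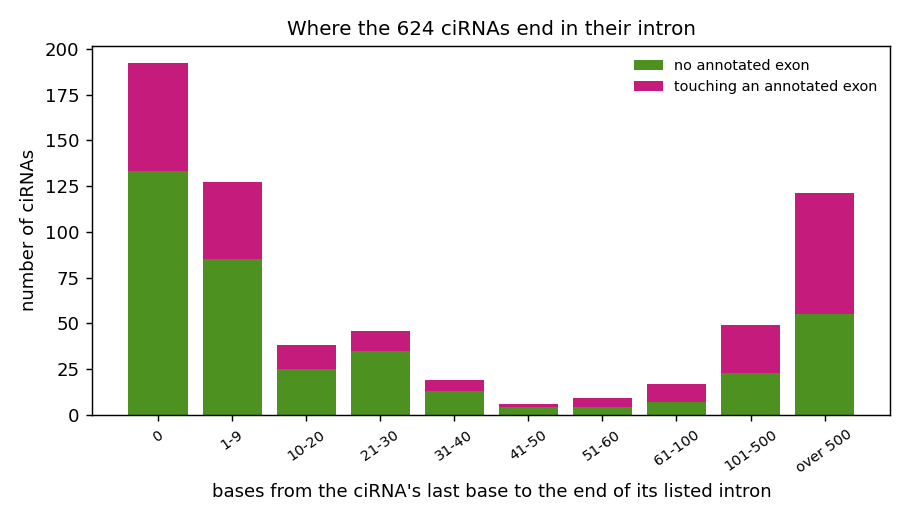
Number of ciRNAs by the distance in bases from the ciRNA's last base to the end of its listed intron, with ciRNAs that touch no annotated exon in green and ciRNAs that touch one in magenta. The 192 ciRNAs at distance 0 form the tallest bar, a smaller group of 46 ends 21 to 30 bases before the intron end, and 121 end more than 500 bases before it.

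The bases at the ends were read class by class. Of 29 readable ciRNAs that reach the intron end, 28 (96.6%) ended with AG, the dinucleotide of the 3′ splice site. At the other positions in their last 30 bases the share was 1.97%. The class was set by the listed intron end, so this share describes annotated introns and is no separate finding about ciRNAs. In the class that stops 10 to 60 bases short, where branch points usually lie, 3 of 26 readable ciRNAs (11.5%) ended with A, against 25.2% of the 29 bases before. A was thus not more frequent at the last base than before it in these 26. The 81 ciRNAs of this class that touch no exon could not be read. Whether the ciRNAs of this class end at a branch point adenosine was therefore not tested. In the class that stops 1 to 9 bases short, 12 of 24 ended with A, against 15.8% of the bases before. The listed intron ended with AG in all 22 that could be read. A ciRNA that stops 1 base before such an end must end on the A of the AG. This share therefore cannot be read as an excess at branch points, and how many of the 12 stop there was not counted. Only ciRNAs inside an annotated exon could be read, so these shares describe 175 of the 624 at the start and fewer at the end.

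ciRNAs were longer than exonic circRNAs and far less abundant. Their median length was 698 bases (quartiles 458 and 1076), against 527 bases for exonic circRNAs. The shortest was ciRNA130 of Hcfc1, a transcriptional coregulator, with 136 bases, and the longest was ciRNA408 of Svil, the actin-binding supervillin, with 5793. The mean count over the 6 libraries had a median of 15.4 for ciRNAs and 146 for exonic circRNAs, and the mean deposited FPKM a median of 0.580 and 6.80. Every library held 238 of the 624 ciRNAs (38.1%) and 90.2% of the exonic circRNAs, and 12 ciRNAs were found in 1 library only. Of the 539 host genes 340 also had exonic circRNAs in the table. The listed host type was mRNA for 608 ciRNAs and lncRNA for 16.

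Counts were not independent between overlapping ciRNAs. In 40 positions 2 or more ciRNAs overlapped, 87 ciRNAs in all. In 56 pairs 1 ciRNA lay inside the other. The longer one had a count at least as high in all 6 libraries in each of the 56 pairs, and 33 pairs had equal counts throughout. The count thus never fell with a longer interval, and a sum over ciRNAs reads some introns more than once. The sources used here do not say what was counted.

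ciRNAs that touch an annotated exon had a higher median count than the rest, and the ranges of both kinds overlapped. This split was chosen after the values had been seen. No annotated exon on either strand was touched by 384 ciRNAs (61.5%), which held 25.7% of all ciRNA counts. A same-strand exon covered part of 130 ciRNAs and the whole of 91, and 19 overlapped only an exon of a gene on the opposite strand. These 240 held 74.3% of the counts. The median of the mean count was 28.7 with an exon (quartiles 9.79 and 79.6) and 10.9 without one (quartiles 4.94 and 25.3). Set beside the host gene, whose FPKM was summed over the isoforms of its name, the median ciRNA reached 2.68% of the host FPKM without an exon, 4.44% when partly in an exon, 14.4% when wholly in one, and 12.1% when only an opposite-strand gene had an exon there. The ciRNA FPKM exceeded that of the host for 16 ciRNAs, all of which touched an exon. ciRNA and host FPKM come from tables that were normalized separately, so these percentages hold only roughly.

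**Figure D2:**
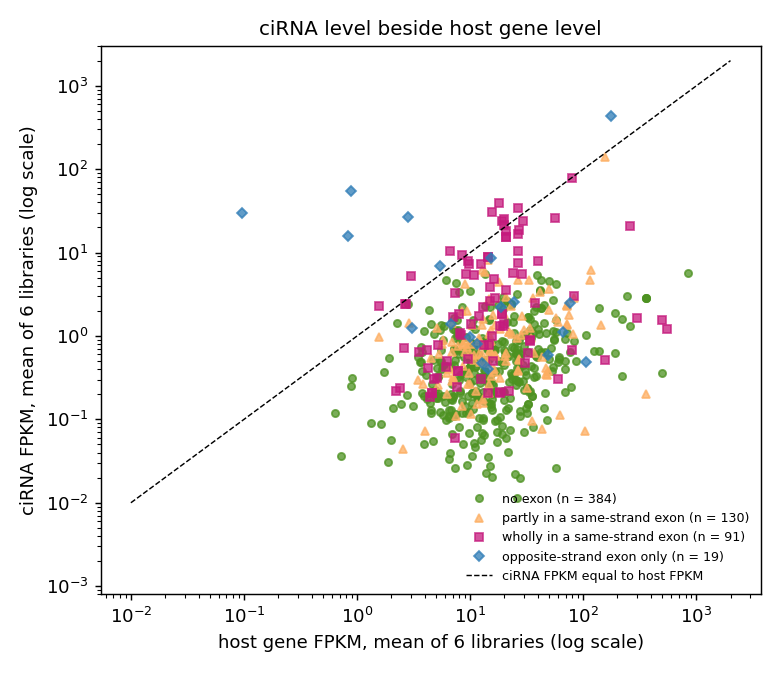
Mean ciRNA FPKM against mean host gene FPKM over the 6 libraries, both on log scales, 1 point per ciRNA, coloured by overlap with annotated exons, with a dashed line where both are equal. The 384 ciRNAs without an exon all lie below the line, and the 16 above it are ciRNAs wholly in an exon or opposite one.

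The most abundant ciRNAs were of the kind that touches an exon. All of the 12 with the highest mean count did, as did 28 of the first 30, and the first without an exon was ciRNA321 of Fam214a at rank 23, with 353, 102 and 263 counts in TSCI and 602, 167 and 153 in sham. ciRNA229 of Gm20417 had 4460, 2748 and 7794 counts in TSCI and 5971, 1567 and 1521 in sham. Gm20417 lies opposite Malat1, an abundant nuclear long noncoding RNA, whose FPKM was 325, 171 and 627 in TSCI, against 1069, 72.2 and 132 in sham. ciRNA359 of Actg1, the gene of gamma-actin, had 6852, 1808 and 6486 counts in TSCI and 3772, 423 and 605 in sham. It lies at chromosome 11, 120347188 to 120347862, partly in an annotated exon, and holds the microRNA gene Mir6935. These 2 ciRNAs took 21.04% of all ciRNA counts, and in both the lane 8 library of sham stood far above the other sham libraries. The kit was stranded, but the sources used here do not say whether circRNA counting used the strand, so reads of Malat1 and of Gm20417 cannot be told apart.

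ciRNA37 of 1700126G02Rik, next by count, is a further example of a ciRNA opposite an exon. It had 534, 757 and 1464 counts in TSCI and 1747, 505 and 865 in sham, while its listed host reached at most 0.29 FPKM in any library. Etnk1, an ethanolamine kinase on the other strand with a UTR at this position, had 15.5, 4.62 and 19.1 FPKM in TSCI, against 14.9, 2.91 and 14.3 in sham. ciRNA382 of Gm16537 lies opposite Gpd1, the cytosolic glycerol-3-phosphate dehydrogenase. It had 316, 620 and 1041 counts in TSCI and 166, 0 and 68 in sham, all TSCI libraries above all sham libraries. Gpd1 had 112, 86.5 and 155 FPKM in TSCI, against 30.02, 6.12 and 9.61 in sham, whereas the listed host had 0.18, 2.31 and 0 in TSCI, against 0.323, 1.79 and 0.716 in sham.

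The remaining 9 of the 12 most abundant ciRNAs came from protein-coding genes. ciRNA571 of Gpm6b, a proteolipid of neural membranes, had 327, 448 and 903 counts in TSCI and 1020, 173 and 380 in sham. ciRNA404 of Slc1a2, the main glutamate transporter of astrocytes, had 426, 172 and 372 counts in TSCI and 1213, 411 and 392 in sham. Scaled to circRNA counts it was the only one of the 12 with all TSCI libraries below all sham libraries, and its log2 fold change of -0.90 ± 0.41 (SE) did not pass the test (edgeR, adjusted p = 0.436). The others were ciRNA295 of Itgav, described below, and ciRNAs of Plekhb2, of the kinase Map2k7, of the calcium pump Atp2a2, of the splicing factor Sfpq, of Wtap, a subunit of the RNA methylation complex, and of the sorting nexin Snx12. Their log2 fold changes, Itgav apart, lay between -0.24 and 0.68 and none passed. Of the 624 ciRNAs 8 held an annotated small RNA gene, among them ciRNA359 of Actg1 and a Gas5 pair with Snord78 and Snord80. These 8 took 11.2% of the ciRNA counts, with 7193, 2290 and 7218 in TSCI and 4287, 1106 and 1357 in sham. Summed over the libraries, most of these counts were those of ciRNA359, so the share does not describe the others.

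The first comparison asked whether injured cord held more or fewer ciRNAs in sum. ciRNAs took 0.741%, 0.642% and 0.827% of the circRNA counts in TSCI and 0.597%, 0.434% and 0.595% in sham. All TSCI libraries lay above all sham libraries, at 0.737% ± 0.0924 in TSCI, against 0.542% ± 0.0934 in sham (SD, n = 3 each), a difference of 0.195 percentage points (two-sided exact permutation test, p = 0.1, the smallest that 3 against 3 allows). Within lane 8 the difference was 0.144 percentage points and within lane 1 it was 0.140. The 95% exact binomial intervals of the shares reached at most 0.00829 percentage points to either side. They treat the counts as independent reads and so understate the counting error of fractional and overlapping counts. Scaled to fragments in place of circRNA counts the groups overlapped. ciRNAs then had 1147, 771 and 1206 counts per 1000000 fragments in TSCI and 1127, 664 and 642 in sham (exact permutation test, p = 0.2), with a difference of 19.8 within lane 8 and of 347 within lane 1.

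In the group means the ciRNAs without an exon did not share that direction. They took 0.146%, 0.161% and 0.156% of circRNA counts in TSCI and 0.139%, 0.182% and 0.215% in sham. The difference was -0.0246 percentage points (exact permutation test, p = 0.4). Within lane 8 it was 0.00672 percentage points and within lane 1 it was -0.0565. As counts per 1000000 fragments they had 226, 193 and 227 counts in TSCI and 263, 279 and 231 in sham, so that all TSCI libraries lay below all sham libraries (exact permutation test, p = 0.1). The ciRNAs that touch an exon had 921, 578 and 979 counts per 1000000 fragments in TSCI and 864, 385 and 410 in sham (exact permutation test, p = 0.2). In this second set the lane 8 library of sham overlapped the TSCI libraries. Without the ciRNAs of Gm20417 and Actg1 the difference in share over all ciRNAs was 0.0713 percentage points (exact permutation test, p = 0.4). In such bulk samples fewer cells of a type and less RNA per cell cannot be told apart.

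**Figure D3:**
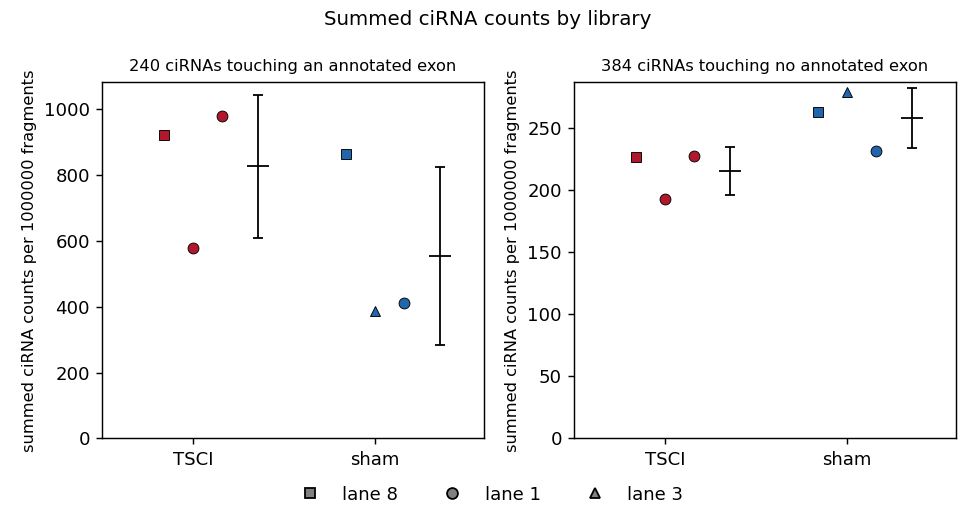
Summed ciRNA counts per 1000000 fragments in each library, for the 240 ciRNAs that touch an annotated exon (left) and the 384 that touch none (right), with squares for lane 8, circles for lane 1 and the triangle for lane 3, and the mean with its SD beside the points. On the left sham replicate 1 sits at 864 among the TSCI libraries, and on the right the 3 TSCI libraries, 193 to 227, lie below the 3 sham libraries, 231 to 279.

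The number of ciRNAs with a count above 0 was 480, 593 and 596 in TSCI, against 577, 298 and 478 in sham (556 ± 66.1 and 451 ± 141, SD, n = 3 each). The difference of 105 was within the spread of the sham libraries (exact permutation test, p = 0.2). It was -97 within lane 8 and 116.5 within lane 1, and sham replicate 2, with the fewest, was also the library in which 1 circRNA held the most counts. Without that library the difference was 28.8.

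No single ciRNA passed the test between TSCI and sham. Of the 624, 580 passed the filter of 10 counts over the 6 libraries and presence in 3, and the other 44 were not tested. In edgeR's quasi-likelihood test with Benjamini-Hochberg adjustment over all 17363 circRNAs tested, 0 ciRNAs passed an adjusted p of 0.05, against 0.0% of all circRNAs. At an unadjusted p of 0.05 there were 27 ciRNAs (4.66%), 19 higher and 8 lower in TSCI, against 11.6% of all circRNAs. This balance moved with the fit. It was 27 higher and 30 lower with lane 8 as a covariate, and 62 higher and 54 lower without sham replicate 1. In either direction these fits gave 57 and 116 of the 580 ciRNAs, against 3255 and 4915 of the 17363 circRNAs. In both fits the share was thus smaller for the ciRNAs than for all circRNAs. DESeq2 called 8 ciRNAs higher in TSCI (1.38%), against 1.15% of all circRNAs, and 0 lower, against 0.299%. The median log2 fold change was 0.05 over the 580 and 0.01 over all circRNAs, and over the 580 it ranged from -0.17 without TSCI replicate 2 to 0.34 without sham replicate 3. The libraries of the groups did not overlap for 51 ciRNAs higher in TSCI (8.79%; background 10.2%) and for 7 lower in TSCI (1.21%; background 7.68%).

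An overlapping pair of ciRNAs of Itgav, the integrin alpha v chain that binds matrix proteins, was higher in every TSCI library than in every sham library. They share a start at chromosome 2, 83803337, and lie wholly in an annotated UTR exon, the shorter inside the longer. ciRNA78, of 376 bases, had 279, 444 and 887 counts in TSCI and 169, 40 and 60.5 in sham, a log2 fold change of 2.69 ± 0.46 (SE; edgeR, adjusted p = 0.320). ciRNA295, of 586 bases, had 537, 732 and 1607 counts in TSCI and 341, 137 and 113 in sham, a log2 fold change of 2.34 ± 0.40 (SE; edgeR, adjusted p = 0.320). The third ciRNA of the gene, ciRNA294 in intron 20, touches no exon and had 14, 19 and 29 counts in TSCI and 9, 0 and 6 in sham, a log2 fold change of 2.13 ± 1.15 (SE; edgeR, adjusted p = 0.479). The Itgav gene had 38.5, 19.1 and 25.7 FPKM in TSCI, against 25.4, 4.46 and 6.37 in sham. Sham replicate 1, of lane 8, lay among the TSCI libraries, and the gene did not pass (limma, adjusted p = 0.667).

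ciRNA209 of Dnajb11, a co-chaperone of the endoplasmic reticulum, also lies wholly in a UTR exon, at chromosome 16, 22871764 to 22872033 on the plus strand. It had 213, 461 and 983 counts in TSCI and 151, 51 and 115 in sham, a log2 fold change of 2.32 ± 0.54 (SE; edgeR, adjusted p = 0.422). Its gene had 25.3, 19.4 and 34.4 FPKM in TSCI, against 8.77, 2.71 and 2.90 in sham, with no overlap between the groups. The ciRNA stood at 198% of the FPKM of the gene.

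Atad2, a chromatin protein with an ATPase domain and a bromodomain, held the ciRNA of lowest p that touches no exon. ciRNA381, of 396 bases in intron 4 at chromosome 15, 58126153 to 58126548 on the minus strand, ends 2 bases before the end of that intron. It had 26, 6 and 46 counts in TSCI and 0 in all 3 sham libraries. That is at least 26.4-fold higher in TSCI against a floor of 3 counts over the sham group (edgeR, adjusted p = 0.422). At 0 in sham, it met the filter of presence in 3 libraries only through the TSCI libraries. Its lack of overlap was thus fixed by the filter and is no support for a difference. The Atad2 gene had 9.34, 5.30 and 7.60 FPKM in TSCI, against 8.37, 1.33 and 2.66 in sham, which overlap.

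Introns of 3 further genes, named after their values had been seen because DESeq2 called them, gave ciRNAs that were also higher in TSCI. ciRNA81 of Thbs1, the matrix protein thrombospondin 1, spans the whole of intron 14 (chromosome 2, 118120330 to 118120835). It had 87, 120 and 133 counts in TSCI and 3, 0 and 11 in sham, beside gene values of 70.1, 24.6 and 49.6 FPKM in TSCI, against 5.18, 1.87 and 4.11 in sham. ciRNA90 of Col3a1, a fibrillar collagen chain, had 9, 19 and 30 counts in TSCI and 0 in all sham libraries. That is at least 19.6-fold higher in TSCI against the same floor. Like the Atad2 ciRNA, this ciRNA met the filter only through the TSCI libraries. Its gene had 135, 122 and 120 FPKM in TSCI, against 18.5, 27.8 and 35.7 in sham. ciRNA190 of Pfkl, a phosphofructokinase of glycolysis, had 40, 21 and 35 counts in TSCI and 2, 0 and 3 in sham. Its gene rose less than the others. With 1 library left out the log2 fold change of the Pfkl gene ranged from 0.53 to 1.36. That of the Thbs1 gene ranged from 3.12 to 3.91 and that of the Col3a1 gene from 1.98 to 2.44. Relative to its gene ciRNA190 ranged from 1.86 to 2.67. None of the 3 ciRNAs touches an exon, and none passed in edgeR (adjusted p = 0.422 for each). The macrophage markers given above were also higher in TSCI, and their part in the differences was not tested.

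**Figure D4:**
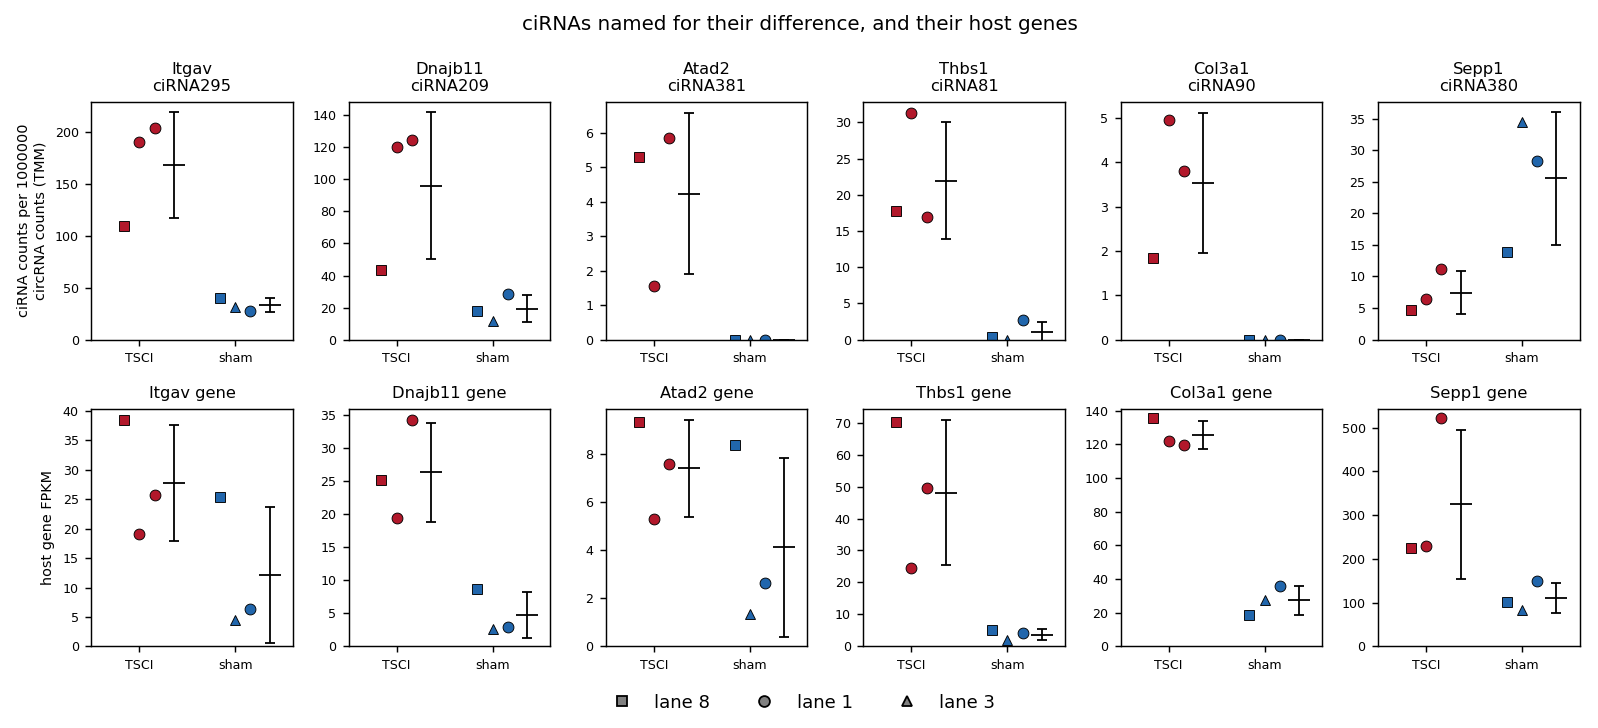
Counts per 1000000 circRNA counts for 6 ciRNAs (upper row) and FPKM of their host genes (lower row) by library, TSCI left and sham right, with squares for lane 8, circles for lane 1 and triangles for lane 3, and the mean with its SD beside the points (SD bars stop at 0). In the first 5 columns the ciRNA of every TSCI library lies above every sham library. For the ciRNAs of Atad2 and Col3a1, at 0 in all sham libraries, the filter allowed no other order. In the last column, Sepp1, the ciRNA lies below while its gene lies above.

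For Sepp1 the values of ciRNA and gene lay in opposite directions. The gene encodes selenoprotein P, a secreted selenium carrier. ciRNA380, of 1376 bases in intron 3 at chromosome 15, 3275780 to 3277155 on the plus strand, ends 1 base before the end of that intron and touches no exon. It had 23, 25 and 88 counts in TSCI and 117, 151 and 115 in sham. As counts per 1000000 circRNA counts this was 7.46 ± 3.36 in TSCI, against 25.5 ± 10.5 in sham (SD, n = 3 each). The log2 fold change was -1.76 ± 0.54 (SE; edgeR, adjusted p = 0.422). The gene had 225, 228 and 521 FPKM in TSCI, against 101, 82.6 and 149 in sham, all TSCI libraries above all sham libraries. Relative to its gene the ciRNA was lower by a log2 fold change of -3.19 ± 1.16 (SE), which did not pass over all circRNAs (limma, adjusted p = 0.99997).

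The other ciRNAs of lowest p in the lower direction came from Tomm40l and Ptprd. ciRNA310 of Tomm40l, related to the import channel of the mitochondrial outer membrane, had 0, 0 and 3 counts in TSCI and 4, 22 and 14 in sham. It overlaps only an exon of a gene on the opposite strand. As for Sepp1, ciRNA and gene lay in opposite directions. With 1 library left out the log2 fold change of the Tomm40l gene ranged from 0.14 to 0.95. That of the ciRNA relative to its gene ranged from -3.53 to -2.28 and did not pass. Ptprd, a receptor-type tyrosine phosphatase of synapses, had 3 ciRNAs of the same intron, ciRNA278, ciRNA48 and ciRNA49, of 1252, 1253 and 1254 bases. They were listed with the same counts, 24.5, 75.5 and 81.8 in TSCI, against 95.5, 369 and 197 in sham. As counts per 1000000 circRNA counts the groups overlapped, and the log2 fold change was -2.05 ± 0.79 (SE; edgeR, adjusted p = 0.422). The 3 therefore stand for 1 signal. The Ptprd gene had 583, 57.8 and 227 FPKM in TSCI, against 943, 187 and 158 in sham, highest in the lane 8 library of each group.

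The genes with the most ciRNAs were Hnrnpk with 5, an RNA-binding protein of splicing, and those with 4 included Ptprd and Agfg1. Agfg1 encodes a protein with an Arf GAP domain. ciRNA91 of Agfg1, intron 11 in full, had 4.5, 54.0 and 50.8 counts in TSCI and 34.2, 217 and 124 in sham. ciRNA146 of Hnrnpk had 37.7, 92.8 and 146 counts in TSCI and 72.3, 172 and 131 in sham. For these ciRNAs of introns 11 and 6 the lane 8 library was the lowest of its group, and the groups overlapped (edgeR, adjusted p of 0.486 for Agfg1 and 0.699 for Hnrnpk). In intron 7 of Hnrnpk it was not. ciRNA145 and ciRNA413 lie there and were listed with the same counts, 59.0, 9.5 and 83.5 in TSCI and 51.5, 14.5 and 32.5 in sham. As counts per 1000000 circRNA counts TSCI replicate 1 of lane 8 was the highest TSCI library, and sham replicate 1 of lane 8 lay between the other sham libraries. Within lane 8 and within lane 1, TSCI was below sham for the Agfg1 ciRNA on the scale of circRNA counts, and no test covers these within-lane values.

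The Arrb1 and Gas5 ciRNAs printed above also had the lane 8 library lowest in each group. ciRNA18 of Arrb1 had 21, 40.7 and 37.6 counts in TSCI and 13.2, 136 and 141 in sham (edgeR, adjusted p = 0.495). ciRNA102 of Gas5, with Snord78, had 39, 95 and 242 counts in TSCI and 39, 127 and 139 in sham (edgeR, adjusted p = 0.976). The Gas5 gene had 56.0, 18.4 and 29.3 FPKM in TSCI, against 38.7, 11.5 and 6.05 in sham, so the lane 8 libraries were the highest of their group for the gene and the lowest for the ciRNA. Over all 580 tested ciRNAs both lane 8 libraries lay below the 4 others for 104 (17.9%; background 16.5%) and above them for 40 (6.90%; background 16.5%).

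**Figure D5:**
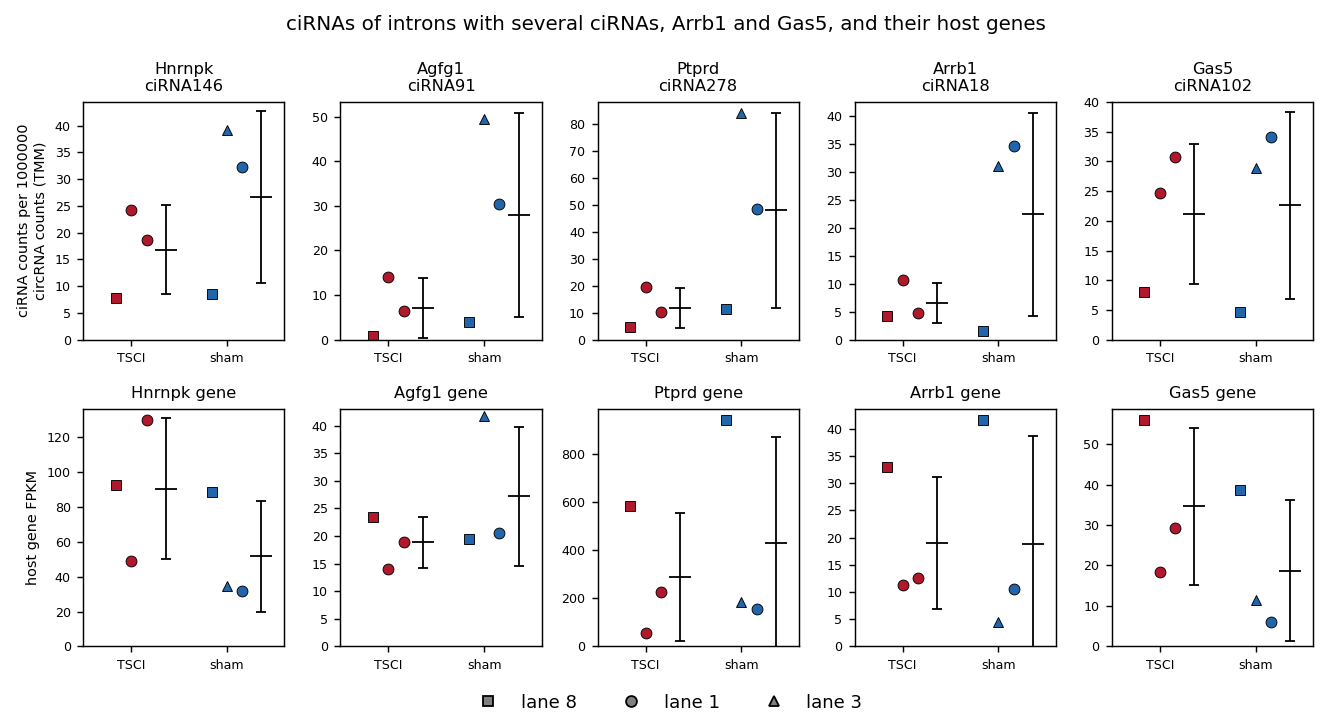
Counts per 1000000 circRNA counts for 5 ciRNAs (upper row) and FPKM of their host genes (lower row) by library, TSCI left and sham right, with squares for lane 8, circles for lane 1 and triangles for lane 3, and the mean with its SD beside the points (SD bars stop at 0). The squares of lane 8 are at or near the bottom of each group for the ciRNAs and mostly at the top for the genes.

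At Agfg1 the gene value itself held the intron. A single-exon assembled isoform covering 0.5 or more of the length of ciRNA91 had 1.21, 7.59 and 5.91 FPKM in TSCI, against 5.88, 36.8 and 16.4 in sham, the same order of libraries as the ciRNA. The summed Agfg1 FPKM was 23.4, 14.1 and 19.0 in TSCI, against 19.4, 41.7 and 20.5 in sham, so most of the value in sham replicates 2 and 3 came from that isoform. Such an isoform was assembled over 22 of the 624 ciRNAs.

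Few host genes differed between TSCI and sham. Of 538 tested hosts 2 passed in limma on log2(FPKM + 0.5), both higher in TSCI, against 0.126% of all 19072 genes. Tnc, which encodes the matrix protein tenascin C and was among them, had 56.1, 17.7 and 36.9 FPKM in TSCI, against 2.14, 0.250 and 0.902 in sham, a log2 fold change of 4.59 ± 0.79 (SE; adjusted p = 0.0428). ciRNA47 of Tnc had 0, 7 and 4 counts in TSCI and 0 in all sham libraries and was too rare to be tested. At an unadjusted p of 0.05 there were 29 hosts (5.39%), against 8.17% of all genes. The median log2 fold change was 0.44 over the hosts and 0.47 over all genes. With median-ratio scaling of the gene table it was 0.015 over the hosts and 0.10 over all genes, and with 1 library left out it ranged from 0.14 to 0.95 over the hosts and from 0.15 to 0.83 over all genes. Host values did not overlap between the groups for 34 genes higher in TSCI (6.32%; background 11.7%) and 14 lower in TSCI (2.60%; background 2.34%). With lane 8 as a covariate 5 hosts passed as higher in TSCI, among them Cd53, Il4ra, Thbs1 and Tnc, against 1.38% of all genes. No host passed without TSCI replicate 1, 2 or 3, without sham replicate 2, without both lane 8 libraries, or with no filter on low values.

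Relative to the host gene no ciRNA passed either. For 579 ciRNAs the log2 counts per 1000000 circRNA counts minus log2(host FPKM + 0.5) could be tested, and 0 passed in limma, against 0.0% of 17318 circRNAs. At an unadjusted p of 0.05 there were 17 ciRNAs (2.94%), against 1.35% of all circRNAs. The median log2 fold change relative to the host was -0.20 over the ciRNAs and 0.00 over all circRNAs. With 1 library left out it ranged from -0.63 to 0.35 over the ciRNAs and from -0.38 to 0.37 over all circRNAs, and for the ciRNAs it was positive without TSCI replicate 1 (0.35) and without sham replicate 3 (0.28). With a prior count of 0.5 and a pseudocount of 0.1 it was -0.037 over the ciRNAs. Relative to its gene Itgav ciRNA78 stood at 1.17 ± 0.79, Thbs1 ciRNA81 at 1.05 ± 1.10 and Dnajb11 ciRNA209 at -0.25 ± 0.76 (log2 fold change, SE). None of these passed (limma, adjusted p = 0.99997 for each). Intronic isoforms took a larger share of the isoform table in the lane 8 libraries, and their part in this ratio was not tested.

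The machinery that releases and opens lariats was measured in the gene table. A list of 16 genes covered the branch site factor Sf3b1, the helicases Dhx16, Dhx38, Dhx8 and Dhx15, and the second-step factor Slu7. It also held the spliceosome components Cdc5l, Prpf19, Aqr and Xab2 and the disassembly factors Tfip11 and Gcfc2. The rest were the debranching enzyme Dbr1, and Mplkip, Cwf19l1 and Cwf19l2, which are linked to lariat turnover. All 16 were tested and 0 passed (limma; 0 also at an unadjusted p of 0.05, lowest adjusted p 0.773), against 0.126% of all genes at the adjusted p and 8.17% at the unadjusted p. Of the 16, 10 had a positive log2 fold change, with a median of 0.56 and a range of -0.59 to 1.24, beside the median of 0.47 over all genes. Dbr1 had 1.96, 3.61 and 5.86 FPKM in TSCI, against 2.26, 12.5 and 2.62 in sham, and the groups overlapped. Dhx15, the helicase that takes the lariat spliceosome apart, had 38.6, 18.8 and 48.8 FPKM in TSCI, against 30.2, 13.6 and 10.4 in sham, again with overlap.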

How the data were processed

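The deposited circRNA and isoform tables of 6 spinal cord libraries (3 TSCI, 3 sham) were used. Per the labels' protocols, total RNA was depleted of ribosomal RNA and made into stranded libraries. HISAT2, StringTie and TopHat are named in the submitters' processing notes; the circRNA caller and build were not given in the sources used here. Among transcripts with an M21 identifier, 94.6% had the same position in GENCODE M21, so coordinates are GRCm38, 1-based. The circRNA counts deposited by the authors were estimated counts (33.8% whole within 1e-06) and were rounded for testing; the design had foreseen whole reads. The deposited circRNA FPKM equal count per length and fragment number, which gave the fragments per library. Isoform FPKM, deposited by the authors, were summed per gene name, intronic isoforms included, and the coverage signal deposited by the authors gave the bases in intronic isoforms.

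circRNAs with at least 10 counts and presence in 3 libraries were compared by quasi-likelihood tests in edgeR 4.0.16 (TMM), genes with a mean FPKM of at least 0.5 with limma 3.58.1 (trend, log2(FPKM + 0.5), not rescaled), circRNA relative to host with limma (prior count 2), each with Benjamini-Hochberg adjustment over the whole table. R 4.3.3, DESeq2 1.42.0, Python 3.11.15 and scipy 1.17.1 were used. The functions were tested on simulated data. How often a true difference of a given size would pass at the spread of these libraries is not reported here. Fold changes on a log scale with a pseudocount understate changes of low genes. The members and lists were chosen with earlier results of these data known. Named ciRNAs were the 12 of highest mean count, the 5 of lowest p in each direction, the shortest and longest, and those of the hosts with most ciRNAs, ties included, of which those of 2 host genes are not reported here; other named ciRNAs and the printed sequences were chosen after their values were seen. Alternatives were other scalings, filters, pseudocounts, isoform classes, lane, replicate block and each library left out.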

Additional observations from a re-analysis of the deposited data

How the results depend on the processing

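Of ciRNAs tested on circRNA counts, 8 passed with DESeq2, 1 with median-ratio scaling, and 0 with every other setting run. With median-ratio scaling that ciRNA was the only one of all 17363 circRNAs to pass. With DESeq2 199 of all circRNAs passed as higher in TSCI and 52 as lower. The number of host genes that passed, 2 as reported, was 5 with lane 8 as a covariate. It was 1 with median-ratio scaling, with a pseudocount of 0.1 or 1 and with reference-class isoforms only. Of all genes 8 passed as higher in TSCI with median-ratio scaling and 20 with a pseudocount of 0.1. There were 18 with a pseudocount of 1 and 18 with reference-class isoforms only. The number of host genes was 0 without a filter on low values and 0 without both lane 8 libraries. With 1 library left out it was between 0 and 2, and it was 0 without TSCI replicate 1, 2 or 3 or sham replicate 2. The difference in ciRNA share was -0.0246 percentage points with only ciRNAs that touch no exon, an alternative chosen after seeing the data, and 0.141 to 0.242 with 1 library left out. The difference in the number of ciRNAs detected was 28.8 to 168 with 1 library left out, lowest without sham replicate 2 and highest without sham replicate 1. Relative to its host, ciRNA209 of Dnajb11 ranged from -0.75 to 0.28 with 1 library left out and was positive without TSCI replicate 1 (0.24) and without sham replicate 3 (0.28), and the 3 ciRNAs of Ptprd ranged from -2.82 to 0.0788, positive without TSCI replicate 1. The Ptprd gene ranged from -1.40 to 0.27, positive without TSCI replicate 2 (0.27) and without sham replicate 1 (0.20), and was at 0.0578 with reference-class isoforms (log2). The cause of these changes was not tested.

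The replicate numbers were not taken to pair the samples, since same-numbered libraries had correlated deviations of 0.536, 0.297 and 0.0246 in circRNA counts, and TSCI replicate 2 correlated best with sham replicate 3 (0.366). With the replicate number as a block 0 ciRNAs passed on counts and 0 relative to the host. On counts 17 were higher and 22 lower at an unadjusted p of 0.05, against 2656 of all 17363 circRNAs in either direction. With this block 5 host genes passed, against 1.55% of all genes. The difference in share was 0.195 percentage points (exact sign permutation, p = 0.25) and that in detected ciRNAs 105 (exact sign permutation, p = 0.5). The median of the mean count was 15.4 for ciRNAs and 146 for exonic circRNAs. With the filter raised to 30 counts and presence in 4 libraries 0 of 486 ciRNAs passed. At an unadjusted p of 0.05 there were then 13 higher and 8 lower, against 2001 of 17190 circRNAs in either direction.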
